A study of Danio rerio with 6 samples.

Results

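The genes described here encode the axoneme, the microtubule core of motile cilia, and the machinery that assembles it. They were taken by gene symbol from a table of adult zebrafish inner ear cells: axonemal dynein chains, dynein arm assembly factors, tektins, radial spoke proteins, cilia and flagella associated proteins (cfap), sperm associated antigens (spag) and a set of coiled-coil proteins of the axoneme. The rule uses no measured value, though it was chosen with earlier results of these data known. It found 70 of 31387 gene rows. Hair cells, marked by green fluorescent protein (GFP) under the pou4f3 promoter in the line Tg(pou4f3:GAP-GFP)s273t, formed 2 biological replicates, and GFP-negative surrounding cells of the same line formed 1 sample. Cells came from lagena, utricle and saccule together, of females 11 to 13 months old, with 2000 cells a sample and 2 technical replicates each. Technical replicates were averaged, so that n = 2 for hair cells and n = 1, with no spread, for surrounding cells. The library names of the surrounding cells also carry the letters WT, which the labels do not explain, and share a prefix with those of hair cell replicate 1 but not of replicate 2.

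In a motile cilium the doublet microtubules carry outer and inner arms of dynein, the motors that slide 1 doublet along its neighbour. Radial spokes and a central pair of microtubules regulate these motors, the nexin-dynein regulatory complex links neighbouring doublets, and tektins and other inner proteins stiffen the doublets from within. The arms are put together in the cytoplasm by dedicated assembly factors before transport into the cilium. A hair cell carries a single true cilium, the kinocilium, beside its actin-filled stereocilia.

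Values are RPKM, reads scaled to the length of the gene model and to the mapped reads of the library. Mapped reads ranged from 15843692 to 16058483 in the libraries of hair cell replicate 1, from 50791022 to 51566819 in those of replicate 2 and from 17066800 to 17281834 in those of the surrounding cells. Technical replicates differed by about the sampling noise (mean chi-square per gene 1.061 to 1.099, where 1 is sampling alone). Their library names share an index within each pair and differ in lane. Their agreement therefore need not reflect cell collection or library preparation. Of 14 hair cell markers, 13 were tested and all were called higher in hair cells. Their summed level was 13717 and 11975 RPKM in hair cells, against 12.5 RPKM in surrounding cells. Most of the sum in hair cells came from pvalb9, with 6868 and 6003 RPKM, and pvalb8, with 4583 and 3977 RPKM. The list includes pou4f3, whose promoter drove the GFP that marked the cells, so its call is no independent check. Epithelial markers, keratins and epcam among them, summed to 502 and 570 RPKM in hair cells, against 12911 RPKM in surrounding cells, and all 9 tested were called lower. Fibroblast, endothelial and leukocyte markers were called lower for 8 of 9, 6 of 8 and 6 of 8 tested, and the leukocyte marker lyz was called higher. Glial markers were lower for 2 of 5, red blood cell markers for 0 of 6 and muscle markers for 6 of 7, with desma higher. Over all genes tested, 17.7% were called higher and 18.0% lower, by the rule given in the next paragraph. Several markers were chosen with earlier results of these data known. Red blood cell markers summed to 291 and 105 RPKM in hair cells, against 388 RPKM in surrounding cells. The atoh1a row of the hair cell list and the epithelial cldne were at or near 0 in every sample. The part of these other cells in the results below was not tested. In pooled cells of this kind, fewer cells that carry a transcript and less of it per cell cannot be told apart.

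Axoneme genes were higher in hair cells for 49 of the 59 tested rows, and none was lower. Called means a Benjamini-Hochberg adjusted p under 0.05 by limma over all genes tested, and a difference of at least 1 on the log2(RPKM + 1) scale. The background is 17.7% of 15803 tested genes called higher and 18.0% called lower. At an unadjusted p under 0.05 there were 53 of the 59 rows, against 50.8% of all genes tested. With precision weights on recovered reads, 43 were called higher and none lower, against 13.9% and 23.7% of all genes. The median difference of the tested rows was 2.60, against 0.15 for all genes tested, and 35 of the called rows differed by 2 or more. In plain RPKM, 46 of the 49 called rows were at least 4-fold higher, the others being ccdc40, cfap36 and cfap20. Of the 59 rows, 43 reached the filter of 1 RPKM only through the hair cells, which by itself favours a higher value there, so these counts and medians are descriptions. Of the 59 tested rows, both hair cell replicates lay above the surrounding cells in 58 and below them in 1. The shares over all genes tested were 49.6% and 39.1%. Over all 70 rows, tested or not, both lay above in 60 and below in 6. Of all 31387 gene rows, 9440 had both above. The summed level of the 70 rows was 711 and 793 RPKM in hair cells, 0.198% and 0.211% of all RPKM. In surrounding cells it was 76.2 RPKM, or 0.0257%.

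**Figure D1:**
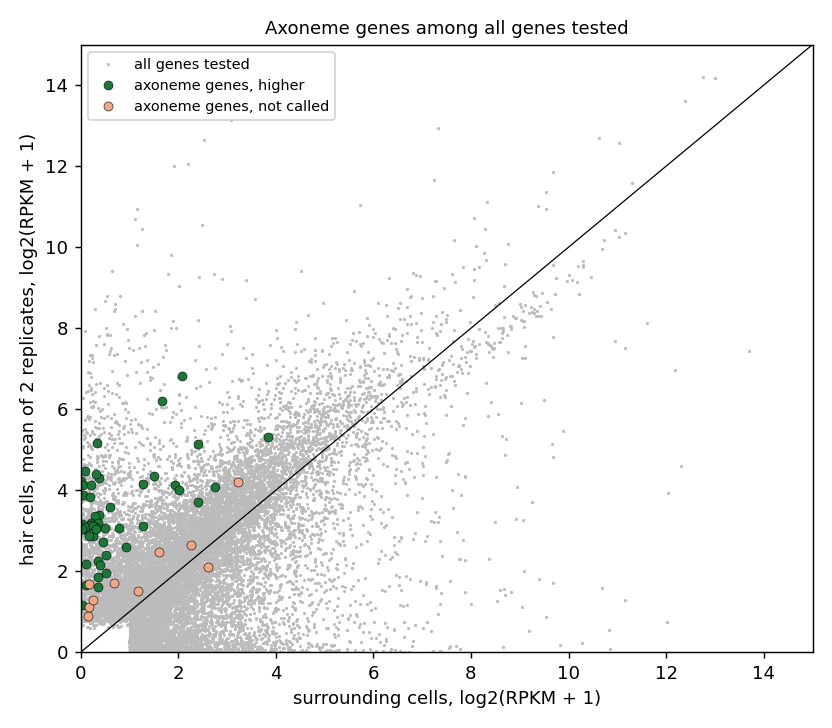
Each point is a gene tested, placed by its level in surrounding cells (x axis) and its mean level in the 2 hair cell replicates (y axis), both as log2(RPKM + 1), with the line of equal level. The 49 axoneme rows called higher (green) lie above the line, and of the 10 rows not called (orange) only SPAG9 (2 of 2) lies below it.

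The axoneme transcripts were of middling abundance in hair cells. The 58 rows with a hair cell mean of at least 1 RPKM had a median of 7.62 RPKM and a highest value of 111 RPKM, against a median of 5.21 RPKM over the 12422 genes of at least that level. In the surrounding cells 54 of the 70 rows were under 1 RPKM, as were 18283 of all 31387 gene rows. The hair cell replicates differed by a median of 0.28 on the log2(RPKM + 1) scale over the 58 rows, against 0.27 over the 12422 genes. Longer gene models had lower levels (Spearman rho -0.52 over the 58 rows and -0.20 over the 12422 genes, given as descriptions across genes that share their libraries).

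Tektins and other proteins inside the doublet microtubules were higher in hair cells for all 10 rows, with a median difference of 3.30. The tektin gene tekt3 (ENSDARG00000045038, chromosome 12) was the most abundant of the 70 rows, with 104 and 119 RPKM in hair cells, against 3.25 RPKM in surrounding cells. Its difference was 4.72 (SE 0.22, limma adjusted p = 0.00719). Tektins form filaments along the doublets, and the other members of the family stood well under tekt3. The gene tekt1 had 14.2 and 18.6 RPKM in hair cells, against 0.162 RPKM in surrounding cells. The levels of tekt2 were 15.1 and 11.2 RPKM in hair cells, against 0.143 RPKM in surrounding cells. The gene tekt4 was the lowest tektin, with 6.16 and 6.50 RPKM in hair cells, against 0.128 RPKM in surrounding cells. The hair cell ranges of tekt1 and tekt2 overlapped, so these 2 have no order, and the replicates of tekt3 lay above those of all the others. The row ccdc105, whose current symbol is tektl1, had 30.7 and 39.1 RPKM in hair cells, against 0.259 RPKM in surrounding cells. At 4.82 (SE 0.27, limma adjusted p = 0.00719) its difference was the largest of the 59 tested rows on this scale. With a pseudocount of 0.1 RPKM or precision weights rsph14 had the largest, and with one of 5 RPKM tekt3 had.

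Among the inner proteins, SPAG8 and cfap126 were nearly confined to the hair cell libraries. SPAG8 had 14.9 and 18.3 RPKM in hair cells, against 0.031 RPKM from 1 read in surrounding cells. That is a ratio of 536 (95% exact Poisson interval 96.9 to 21319, for counting error in the surrounding cells only). The gene cfap126 had 14.0 and 13.4 RPKM in hair cells, against 0.0333 RPKM from 2 reads in surrounding cells, a ratio of 413 (114 to 3408). By contrast cfap20 had the highest level of all 70 rows in the surrounding cells. It had 40.4 and 36.6 RPKM in hair cells, against 13.2 RPKM in surrounding cells, a difference of 1.47 (SE 0.21, limma adjusted p = 0.0175). The other 3 rows, cfap45, cfap52 and cfap53, differed by 2.72 to 2.98.

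Radial spoke genes were higher for 5 of 7 rows, with a median of 2.83. The spoke head gene RSPH1 (ENSDARG00000102261, chromosome 9) ranked next to tekt3 in level, with 74.1 and 71.2 RPKM in hair cells, against 2.17 RPKM in surrounding cells. Its difference was 4.54 (SE 0.20, limma adjusted p = 0.00719). The other spoke head genes stood about an order lower and close to each other. For rsph4a the values were 6.98 and 9.34 RPKM in hair cells, against 0.279 RPKM in surrounding cells. For rsph9 they were 7.36 and 7.08 RPKM in hair cells, against 0.0254 RPKM from 1 read in surrounding cells. The gene rsph14 was listed at 0 in the surrounding cells and at 16.2 and 19.0 RPKM in hair cells. Divided by a floor set at 3 reads in the surrounding cell sample, 0.0552 RPKM, its hair cell mean gave a ratio of 319. This floor was a chosen setting, so the ratio is not comparable with the Poisson intervals given for SPAG8 and cfap126. The gene rsph10b had 5.85 and 9.21 RPKM in hair cells, against 0.220 RPKM in surrounding cells. Not called were rsph3, with a difference of 1.01 (SE 0.28, limma adjusted p = 0.0681), and CFAP61. CFAP61 had 0.989 and 3.47 RPKM in hair cells, against 0.132 RPKM in surrounding cells. Its hair cell replicates differed by 1.17 in log2(RPKM + 1), the most among the 58 rows on that scale.

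Central pair genes were higher for 4 of 5 tested rows. The gene spag6 (ENSDARG00000020158, chromosome 24) had 17.7 and 21.3 RPKM in hair cells, against 1.83 RPKM in surrounding cells, a difference of 2.85 (SE 0.25, limma adjusted p = 0.00843). SPAG17 had 7.17 and 7.59 RPKM in hair cells, against 0.246 RPKM in surrounding cells. CFAP221 had 5.65 and 8.68 RPKM in hair cells, against 0.0824 RPKM in surrounding cells. The remaining central pair rows were near or under 1 RPKM in hair cells. The gene cfap74 was called at 1.45 and 1.04 RPKM in hair cells, against 0.0248 RPKM in surrounding cells. CFAP46 was not called, with a mean of 0.858 ± 0.341 RPKM in hair cells (SD, n = 2), against 0.110 RPKM in surrounding cells (limma adjusted p = 0.0780). SPAG16 stayed under 1 RPKM in every sample and was not tested.

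Genes of the nexin-dynein regulatory complex and of the rulers that set the spacing along the doublet were higher for all 4 rows. The regulatory complex gene ccdc65 (ENSDARG00000032005, chromosome 6) had 15.8 and 26.5 RPKM in hair cells, against 0.0569 RPKM from 3 reads in surrounding cells. Its difference was 4.35 (SE 0.41, limma adjusted p = 0.00885). The gene drc1 of the same complex had 8.54 and 6.19 RPKM in hair cells, against 0.416 RPKM in surrounding cells. The ruler proteins CCDC39 and CCDC40 work as a pair, and their transcripts differed more in surrounding cells than in hair cells. CCDC39 had 7.27 and 8.66 RPKM in hair cells, against 0.0233 RPKM from 2 reads in surrounding cells. The gene ccdc40 had 13.3 and 10.7 RPKM in hair cells, against 4.32 RPKM from 527 reads in surrounding cells. Their differences were 3.13 and 1.28. The call of ccdc40 was lost with no filter on low values, a pseudocount of 5 RPKM and median-ratio scaling over genes tested, and that of drc1 with no filter. Both inner arm tether and modifier genes, cfap57 and cfap43, were higher, with differences of 2.89 and 2.60.

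**Figure D2:**
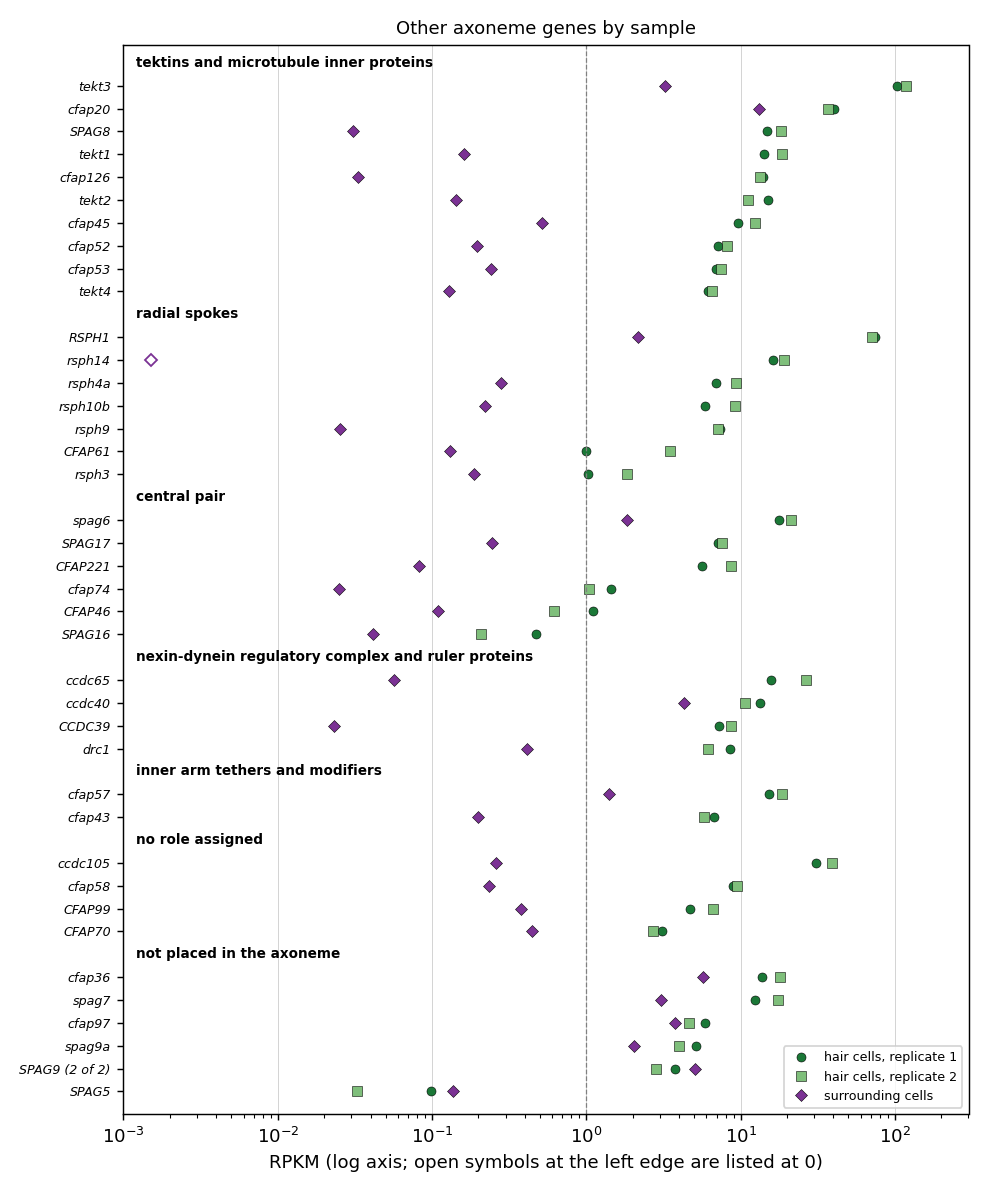
Levels of the structural axoneme genes and of the rows with no assigned role or not placed in the axoneme, in RPKM on a log axis, for hair cell replicates 1 and 2 and the surrounding cells. The dashed line marks 1 RPKM and an open symbol a value of 0. All 10 rows of tektins and inner proteins have both hair cell values above 6 RPKM, and 8 of them are under 1 RPKM in surrounding cells.

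Outer arm dynein rows fell into 10 with both hair cell values above 1 RPKM and 7 under 1 RPKM in every sample. Several of the 7 share a symbol stem with another row. Of 17 rows, 10 were tested and 8 of these were higher, with a median of 2.11. The heavy chain gene dnah5 (ENSDARG00000087373, chromosome 16), which encodes an outer arm motor subunit, had 8.17 and 7.93 RPKM in hair cells, against 0.166 RPKM in surrounding cells. Its difference was 2.96 (SE 0.27, limma adjusted p = 0.00851). The other outer arm heavy chain above 1 RPKM was dnah9l, at 4.04 and 2.96 RPKM in hair cells, against 0.0795 RPKM in surrounding cells. The row dnah9 had 0.0542 and 0.00375 RPKM in hair cells, against 0.0504 RPKM in surrounding cells. The 9 and 2 reads of dnah9 in hair cells set the precision of this gap, with dnah9l at 74.5 and 790 times its level in replicates 1 and 2. Both rows with the symbol dnah11 lay under 0.1 RPKM in hair cells, and DNAH8 did so in all 3 samples.

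Among the intermediate and light chains, rows of 1 name also lay on either side of 1 RPKM. The row DNAI1 (1 of 2) had 6.82 and 8.90 RPKM in hair cells, against 0.135 RPKM in surrounding cells. Its partner dnai1, on chromosome 21 as well, had 6 and 1 reads in hair cells, against 10 in surrounding cells. DNAI2 had 3.32 and 3.60 RPKM in hair cells, against 0.326 RPKM in surrounding cells. Its partner dnai2a, also on chromosome 12, had 0.610 and 0.0373 RPKM in hair cells, against 0.0711 RPKM in surrounding cells. The light chain gene dnal1 had 13.9 and 19.0 RPKM in hair cells, against 2.83 RPKM in surrounding cells. DNAL1 (2 of 2), on chromosome 17 with it, had 0.647 and 0.106 RPKM in hair cells, against 0.600 RPKM in surrounding cells. In each of these pairs both rows share a chromosome and a symbol stem (DNAI2 is now dnai2b, a paralog of dnai2a), and how the counting divided reads between similar copies is not known, so their separate levels are uncertain. The light chain paralogs dnal4b and dnal4a, on chromosomes 22 and 3, were not called. The gene dnal4b had 16.6 and 18.3 RPKM in hair cells, against 8.35 RPKM in surrounding cells. Its difference of 0.98 (SE 0.22, limma adjusted p = 0.0445) missed the size threshold. That of dnal4a was 0.35 (SE 0.25, limma adjusted p = 0.328).

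The docking genes of the outer arm were among its largest differences. The gene ccdc151 (current symbol odad3) had 17.5 and 22.9 RPKM in hair cells, against 0.236 RPKM in surrounding cells, a difference of 4.09 (SE 0.29, limma adjusted p = 0.00725). Its docking partner ccdc114 (current symbol odad1) had 7.29 and 7.80 RPKM in hair cells, against 0.0627 RPKM from 4 reads in surrounding cells. The gene ccdc103, whose product is needed for arm attachment, had 8.92 and 6.54 RPKM in hair cells, against 1.42 RPKM in surrounding cells. Its difference of 1.84 was under the outer arm median of 2.11. Its current symbol is dnaaf19, and it was counted here and not among the assembly factors.

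Inner arm dynein genes had the smallest median of the axonemal roles with a test, 1.67, and were higher for 5 of 6 tested rows. The light intermediate chain gene dnali1 had 7.20 and 7.45 RPKM in hair cells, against 0.728 RPKM in surrounding cells, a difference of 2.27 (SE 0.26, limma adjusted p = 0.0122). Of the single-headed inner arm motors, dnah12 had 4.56 and 3.96 RPKM in hair cells, against 0.440 RPKM in surrounding cells. The row dnah7l, whose current symbol is DNAH6, had 2.90 and 4.56 RPKM in hair cells, against 0.273 RPKM in surrounding cells. DNAH3 was called at a limma adjusted p of 0.0472 and DNAH2 at 0.0325, with differences of 1.47 and 1.24. DNAH10, with 1.23 and 1.08 RPKM in hair cells and 0.126 RPKM in surrounding cells, missed the size threshold at 0.93. Its difference was 2.47 with a pseudocount of 0.1 RPKM and 2.90 with precision weights, and it was called higher with both. The gene dnah7 stayed under 1 RPKM in every sample, at 0.917 and 0.674 RPKM in hair cells, against 0.194 RPKM in surrounding cells.

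Over both arms, 7 of 13 heavy chain rows reached a hair cell mean of 1 RPKM, with a median of 3.50 RPKM and recovered gene models of 9121 to 14118 bases. The 51 other rows at or above that level had a median of 7.86 RPKM. Some heavy chain rows under 1 RPKM in every sample were higher in the surrounding cells than in both hair cell replicates. The row dnah1 had 6 and 40 reads in hair cells, 0.0156 and 0.0323 RPKM, against 115 reads in surrounding cells, 0.276 RPKM. DNAH11 had 27 and 3 reads in hair cells, against 137 reads in surrounding cells, 0.360 RPKM. These are values of single rows under the filter, with no test. Of all 11 untested rows, 5 were above both hair cell replicates in the surrounding cells and 2 were below both. In 9 of the 11, hair cell replicate 1 was above replicate 2. Of the 58 rows with a hair cell mean of at least 1 RPKM, 20 were higher in replicate 1 and 38 in replicate 2. For the other counts given here the share over all genes was not counted, so they describe these rows only. Several of the 11 rest on few reads.

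Factors that assemble dynein arms in the cytoplasm were higher for 5 of 6 rows. The gene spag1a (ENSDARG00000004017, chromosome 19) had 31.8 and 36.5 RPKM in hair cells, against 4.27 RPKM in surrounding cells. Its difference was 2.73 (SE 0.23, limma adjusted p = 0.00787). Its paralog spag1b had 1.88 and 2.44 RPKM in hair cells, against 0.0727 RPKM from 3 reads in surrounding cells. The gene lrrc6 (current symbol DNAAF11) had 19.7 and 17.9 RPKM in hair cells, against 0.293 RPKM in surrounding cells, and a difference of 3.93. Its known partner zmynd10 averaged 9.54 ± 3.49 RPKM in hair cells (SD, n = 2), against 0.303 RPKM in surrounding cells. The gene dnaaf1 was called with 1.64 (SE 0.33, limma adjusted p = 0.0349). For dnaaf3 the difference was 0.97 (SE 0.42, limma adjusted p = 0.156).

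**Figure D3:**
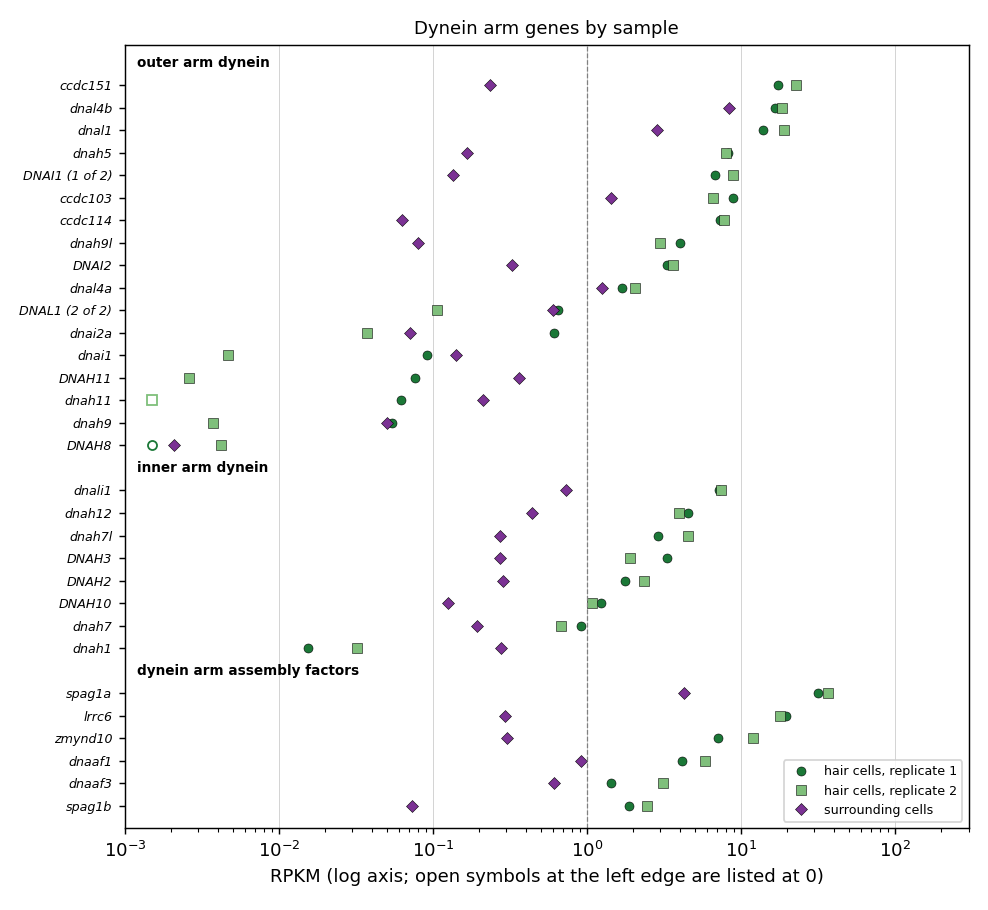
Levels of dynein arm and assembly factor genes in RPKM on a log axis, for hair cell replicates 1 and 2 and the surrounding cells, with a dashed line at 1 RPKM and open symbols for values of 0. The outer arm rows fall into 10 with both hair cell values above 1 RPKM and 7 below it in every sample.

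The group with the smallest median was that of rows not placed in the axoneme. These were SPAG5, spag7, spag9a, SPAG9 (2 of 2), cfap36 and cfap97, taken in by the symbol rule alone. Of the 5 tested, 2 were higher, cfap36 with 1.31 and spag7 with 1.96, and their median was 0.87. SPAG9 encodes a scaffold of kinase signalling and vesicle transport. SPAG9 (2 of 2) was the only tested row with a value below 0, at 3.76 and 2.83 RPKM in hair cells, against 5.08 RPKM in surrounding cells (difference -0.51, SE 0.30, limma adjusted p = 0.261). Without the 6 rows, 47 of 54 were higher and the median was 2.73. The rows with no role in the lists, cfap58, CFAP99, CFAP70 and ccdc105, were all higher, with a median of 2.65.

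Many axoneme genes stand in the table under older symbols. Applied to current symbols, the rule added 34 rows, of which 29 were tested, a check chosen after seeing the data. Of the 29, 26 were higher and none was lower, against 17.7% and 18.0% of all genes tested. With precision weights 13 of the 29 were called higher, against 13.9% of all genes. In the surrounding cells 30 of the 34 were under 1 RPKM, and those tested reached the filter only through the hair cells. Of the 5 untested rows, those now named cfap97d2 and CFAP157 were above both hair cell replicates in the surrounding cells. The row C5H11orf1 (ENSDARG00000101743, chromosome 5), now CFAP68, a protein inside the doublets, had 289 and 420 RPKM in hair cells, against 0.219 RPKM from 6 reads in surrounding cells. Its difference was 8.16 (SE 0.32, limma adjusted p = 0.00719), and its level was above that of every one of the 70 rows. The row C5H9orf171, now cfap77, had 41.1 and 38.7 RPKM in hair cells, against 0.548 RPKM in surrounding cells. C10H21orf59, now CFAP298, had 27.8 and 29.2 RPKM in hair cells, against 6.22 RPKM in surrounding cells.

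Of 56 further axoneme genes listed by name outside the rule, 43 were in the table and 41 were tested. Of the 41, 39 were higher and none was lower, against 17.7% and 18.0% of all genes tested. With precision weights 30 of the 41 were called higher, against 13.9% of all genes. In the surrounding cells 37 of the 43 were under 1 RPKM. Those of the 37 that were tested reached the filter only through the hair cells, which by itself favours a higher value there. Of the 43, 10 also stand among the rows under older symbols. Among those called higher was ttc26, whose current symbol IFT56 is that of an intraflagellar transport gene. It was not counted in the intraflagellar transport list below. The largest differences were those of meig1 and enkur, 5.67 and 5.18. The gene meig1 had 49.7 and 61.0 RPKM in hair cells, against 0.101 RPKM in surrounding cells. The central pair gene hydin did not pass, at 1.44 and 1.14 RPKM in hair cells, against 0.904 RPKM in surrounding cells (difference 0.27, SE 0.21, limma adjusted p = 0.381). The other row not called was iqca1.

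Regulators of ciliary genes were higher for 4 of 5 tested, against 17.7% of all genes tested. With precision weights 3 of the 5 were called higher, against 13.9% of all genes. The genes foxj1a, foxj1b and rfx1a reached the filter only through the hair cells, which by itself favours a higher value there. The gene foxj1a, a master regulator of motile cilia, had 22.5 and 31.9 RPKM in hair cells, against 0.488 RPKM in surrounding cells. Its paralog foxj1b had 4.32 and 3.28 RPKM in hair cells, against 0.101 RPKM in surrounding cells. The gene rfx2, which encodes an X-box binding factor, had 14.0 and 8.08 RPKM in hair cells, against 1.34 RPKM in surrounding cells. Also called higher was rfx1a, with 3.32 and 4.49 RPKM in hair cells, against 0.957 RPKM in surrounding cells. Its paralog rfx1b was not called and went the other way (difference -0.36). It had 0.919 and 1.42 RPKM in hair cells, against 1.76 RPKM in surrounding cells. By contrast rfx3 stayed under 1 RPKM throughout. Genes of the multiciliated cell program, which drives cells that form many motile cilia, were low throughout. The list held 12 genes, of which mcidas, deup1 and cdc20b had no row under those symbols. The genes e2f4, e2f5 and plk4 were in it but not in the planned marker list of this program. Of 9 found, 4 were tested, none was called higher and myb was lower, against 17.7% and 18.0% of all genes tested. With only 4 tested, these counts cannot be set apart from those shares. The other 3, CCNO, e2f4 and e2f5, had differences of 0.65, 0.71 and 0.70 and were not called. The summed level of the 9 was 5.15 and 7.41 RPKM in hair cells, against 6.98 RPKM in surrounding cells, of which myb gave 4.28 RPKM. Without myb it was 4.87 and 7.39 RPKM in hair cells, against 2.70 RPKM in surrounding cells. Of this, e2f4 gave 1.68 and 2.94 RPKM in hair cells, against 0.994 RPKM in surrounding cells. For e2f5 the values were 0.986 and 2.67 RPKM in hair cells, against 0.658 RPKM in surrounding cells. The early regulator of the program, gmnc, had 0.0167 and 0.445 RPKM in hair cells, against 0.0624 RPKM in surrounding cells.

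Intraflagellar transport genes, which serve motile and sensory cilia alike, were higher for 14 of 24, with a median of 1.39. Cytoplasmic dynein and dynactin genes were higher for 5 of 17 tested, or 29.4%, with a median of 0.73. Over all genes tested, 17.7% were called higher. With precision weights 14 of the 24 and 4 of the 17 were called higher, against 13.9% of all genes. The 5 of 17 were dctn2 and the light chain genes dynll1, dynll2a, dynll2b and dynlt1, of a kind that axonemal and cytoplasmic dyneins share. The differences between these lists were not tested.

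**Figure D4:**
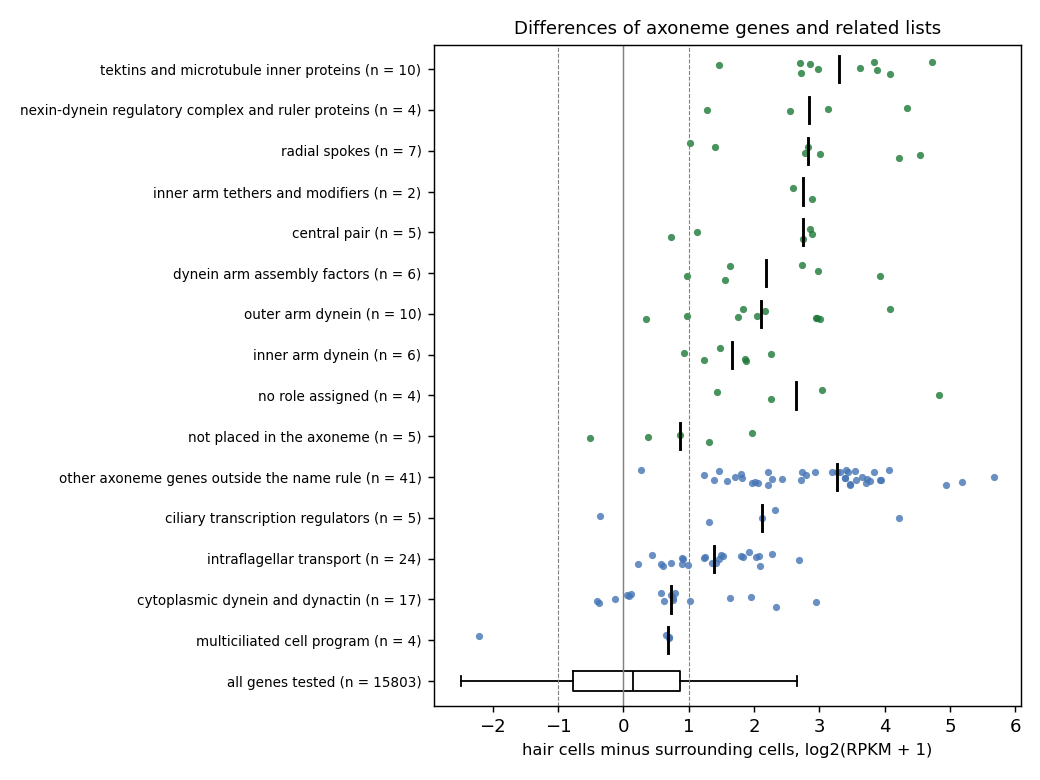
Difference between hair cells and surrounding cells (hair cells minus surrounding) in log2(RPKM + 1), by role for the axoneme rows (green) and for related lists (blue), with the median as a black bar and n as the number tested. The bottom box shows all 15803 genes tested with its quartiles, median and whiskers at the 5th and 95th percentiles. The medians are 3.30 for tektins and inner proteins, 1.67 for inner arm dynein, 1.39 for intraflagellar transport and 0.15 for all genes.

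With hair cell replicate 1 alone, whose libraries share the prefix with the surrounding cells, 50 of 59 rows were higher by 1 or more in log2(RPKM + 1), and with replicate 2 alone 52 were, against 21.6% and 23.3% of all genes. The limma fit had 1 residual degree of freedom, from the pair of hair cell replicates, and assumed that the lone surrounding cell sample varies alike. With 2 samples against 1, the smallest p an exact permutation test allows is 0.333. With no filter on low values the calls fell to 31 of 70 rows, and with precision weights 7 of the 49 calls were lost, those of cfap74, dnaaf1, spag1b, CFAP70, ccdc114, rsph9 and SPAG8, which had 1 to 60 reads in the surrounding cells.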

How the data were processed

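RNA from 2 hair cell samples and 1 surrounding cell sample was extracted with a Qiagen miRNeasy kit and amplified with a Clontech SMART-Seq kit, per the labels. The authors deposited RPKM values per gene and library, from reads mapped to GRCz10 (the build in the submitters’ processing notes). Aligner, counter, annotation and strand: not given in the sources used here. Their 4 columns of averages and standard deviations over libraries were not used. 1 repeated row was dropped.

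Mapped totals and whole reads were recovered from the steps between low values. Reads were whole within 0.001 for all 15803 genes tested. The shortest fitting gene length was taken, so a gene’s reads can be understated by a constant multiple. Reads are not molecules, so intervals cover counting error only. Technical replicates were averaged. Genes with at least 1 RPKM in at least 1 sample were compared on log2(RPKM + 1), which understates changes of low genes, with limma 3.58.1 (variance trend, R 4.3.3). The scripts were tested on simulated data. Differences are hair cells minus surrounding cells. Errors are SE of the fit. Nothing in the labels says that replicates came from separate animals, so p-values measure only the spread between these samples.

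Current symbols were found for 82.6% of gene identifiers. Genes were named by role: up to 4 of highest hair cell level, up to 3 called with the largest difference, all paralog pairs, and those of at least 5 RPKM in surrounding cells. Others named were chosen after their values were seen. The members and gene lists were chosen with earlier results of these data known. Alternatives varied the pseudocount, filter, scaling, weights, replicates and member rule. Promoter motifs and protein sequences were not analysed here.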

Additional observations from a re-analysis of the deposited data

How the results depend on the processing

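Axoneme rows called higher numbered 49 of 59 as reported, 31 of 70 with no filter on low values and 75 of 88 with the rule on current symbols. Over the other alternatives they numbered 35 to 51, of 44 to 59 rows tested, with none called lower in any. By size alone, the counts were 52 without hair cell replicate 1 and 50 without replicate 2. The median difference of 2.60 was 3.70 and 1.24 with pseudocounts of 0.1 and 5 RPKM, 2.01 with no filter, 2.86 with a filter of 5 RPKM, 4.18 with precision weights, 2.48 with median-ratio scaling over genes tested, 2.73 without the rows not placed in the axoneme and 2.31 with current symbols. It was 2.51 without hair cell replicate 1 and 2.62 without replicate 2. That scaling moved the median of all genes to -0.06, with 40.3% of calls higher, against 49.5% as reported and 37.0% with precision weights. A filter of 5 RPKM gave 61.3%. The axoneme median lay 2.53 above that of all genes under that scaling and 2.45 above as reported. Over all genes, 2799 were called higher and 2851 lower, 1603 and 1225 with a pseudocount of 5 RPKM, 1464 and 1740 with no filter. A filter of 5 RPKM left 2709 higher and 1713 lower of 8429 genes tested. The causes were not tested. None of the 59 rows tested changed sign under any alternative run. Calls were lost for 18 rows with no filter, 14 with the pseudocount at 5 RPKM, 3 with scaling over genes tested (ccdc40, cfap36 and DNAH3) and 7 with precision weights. Those lost with both the pseudocount of 5 RPKM and no filter were ccdc103, ccdc40, cfap36, CFAP70, cfap74, CFAP99, dnaaf1, DNAH2, DNAH3, dnah7l, dnah9l and spag1b. The first also lost dnah12 and DNAI2, and the second CFAP221, dnal1, drc1, rsph10b, spag7 and zmynd10. Calls were gained for DNAH10 and dnal4b with the pseudocount at 0.1 RPKM, and for DNAH10 with precision weights. Scaling over genes tested, current symbols and the removal of shared rows were added after seeing the data. Without rows of shared symbol and chromosome, 46 of 56 were higher. No paired analysis was possible because the groups share only 1 replicate number. Depth limits the rows with few reads in the surrounding cells.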
